A study of Arabidopsis thaliana with 4 samples.

Results

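The genes described here are the rps genes of the Arabidopsis thaliana plastid genome, named for proteins of the small subunit of the chloroplast ribosome. They were taken as every gene on the plastid chromosome of the gene table whose symbol begins with rps, so mitochondrial genes of the same name were left out. Of these, 8 had an array probe set assigned to that gene alone: rps2, rps3, rps4, rps14, rps15, rps16, rps18 and rps19. These 8 stand among 13356 genes with a probe set of their own in the whole series and among 69 such genes of the plastid genome. Each had 1 probe set, so the choice of the brightest removed none, and the limit of 10 members was not reached. The genes rps7 and rps12 had only probe sets shared by several gene records and were not analysed here.

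RNA was extracted from whole plants and measured on 4 single-colour Affymetrix arrays. In the first group were 2 arrays of the ppi2 mutant grown for 20 days, which lacks the receptor TOC159 that brings precursor proteins into chloroplasts. In the other were 2 arrays of wild-type plants grown for 10 days. Both were raised on agar medium under long days with no treatment, so genotype and age differed together and cannot be told apart. The labels call the arrays biological replicates without saying whether plants were grown separately, so p-values reflect array-to-array spread alone, which may be technical.

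Chloroplasts keep a ribosome of bacterial type, whose small subunit holds a ribosomal RNA of the plastid, a set of proteins made inside the plastid and a further set that is made in the cytosol and imported. Plastid genes are read by a bacterial-type RNA polymerase, whose core is encoded by the plastid rpo genes, and by phage-type polymerases from the nucleus. Genes of photosynthesis depend mostly on the first, while the rpo genes and several genes of translation can be read by the second. Plastid genes are commonly transcribed in clusters and cut into smaller messages, so neighbouring genes often share a transcript.

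Median signals over all probe sets were similar, from 193 to 213. The arrays did not group by their labels: over the 13604 probe sets tested, the smallest median absolute log2 difference between 2 arrays was 0.16, between ppi2 replicate 1 and wild type replicate 2. The next was 0.26, between ppi2 replicate 2 and wild type replicate 1, and replicates of 1 group stood 0.44 (ppi2) and 0.49 (wild type) apart. Arrays are therefore named by their labels, which were not checked here with a probe set for the mutated gene. The 27 probe sets of spiked poly-A RNA had a median of 1202 on ppi2 replicate 1 and 1706 on wild type replicate 1, against 363 and 462 on the replicate 2 arrays of ppi2 and wild type. The 18 hybridisation control probe sets had a median of 840 on ppi2 replicate 1 and 1106 on wild type replicate 2, against 1669 on ppi2 replicate 2 and 1514 on wild type replicate 1. The ratio of 3' to 5' signal lay between 26.8 and 38.8 for actin and between 1.63 and 2.62 for GAPDH. The part of these controls in any result was not tested. Of the mesophyll markers, RCA and LHCB4.2 had a probe set (2 of 4), and neither was near 0. Their summed signal was 13758 and 49703 on ppi2 replicates 1 and 2 and 46552 and 14423 on wild type replicates 1 and 2. Most of that swing lay in LHCB4.2, which read 840.5 and 29459 in ppi2 against 30097 and 714 in wild type. RCA varied less, at 12918 and 20244 against 16455 and 13708. Of the root hair markers 2 of 3 had a probe set, with sums from 184 to 250 over the 4 arrays.

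Between the labelled groups, none of the rps genes passed the test. All signals below are on the linear scale of MAS5, and all differences are of log2(signal + 7.99), ppi2 minus wild type, where 7.99 is the 10th percentile of all signals. A mean signal of at least 124 was required for a test, and 7 of the 8 genes met it. Of these 7, 0 passed limma's adjusted p threshold of 0.05, against 0% of all tested probe sets, and 0 had an unadjusted p under 0.05, which 8 of the 13604 probe sets had. Their labelled differences ran from -0.28 (rps16) to 0.32 (rps18), with a median of 0.09 against -0.01 over all tested probe sets, and each of the 7 had a limma adjusted p of 0.99997. In 0 of the 7 were the groups free of overlap. Over all tested probe sets, 6.12% had both ppi2 arrays above both wild type arrays and 8.14% had both below. A single gene with 2 arrays against 2 cannot give an exact permutation p below 0.333. Over all probe sets, arrays of 1 group lay further apart than the closest pairs of arrays, which crossed the labels. That within-group spread enters the limma test, so the absence of calls does not show that levels were equal.

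The pooled within-group SD of the tested rps genes had a median of 0.67 on the log2 scale, against 0.36 over all tested probe sets. The lowest of the 7 was rps3 at 0.29 and the highest rps15 at 1.501, and every labelled difference of the 7 was smaller than its SE. In whole-plant RNA, fewer cells of a type and less RNA per cell cannot be told apart. The labels do not state how the first strand was primed, and how far the signal of a plastid gene follows its RNA amount was not tested.

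**Figure D1:**
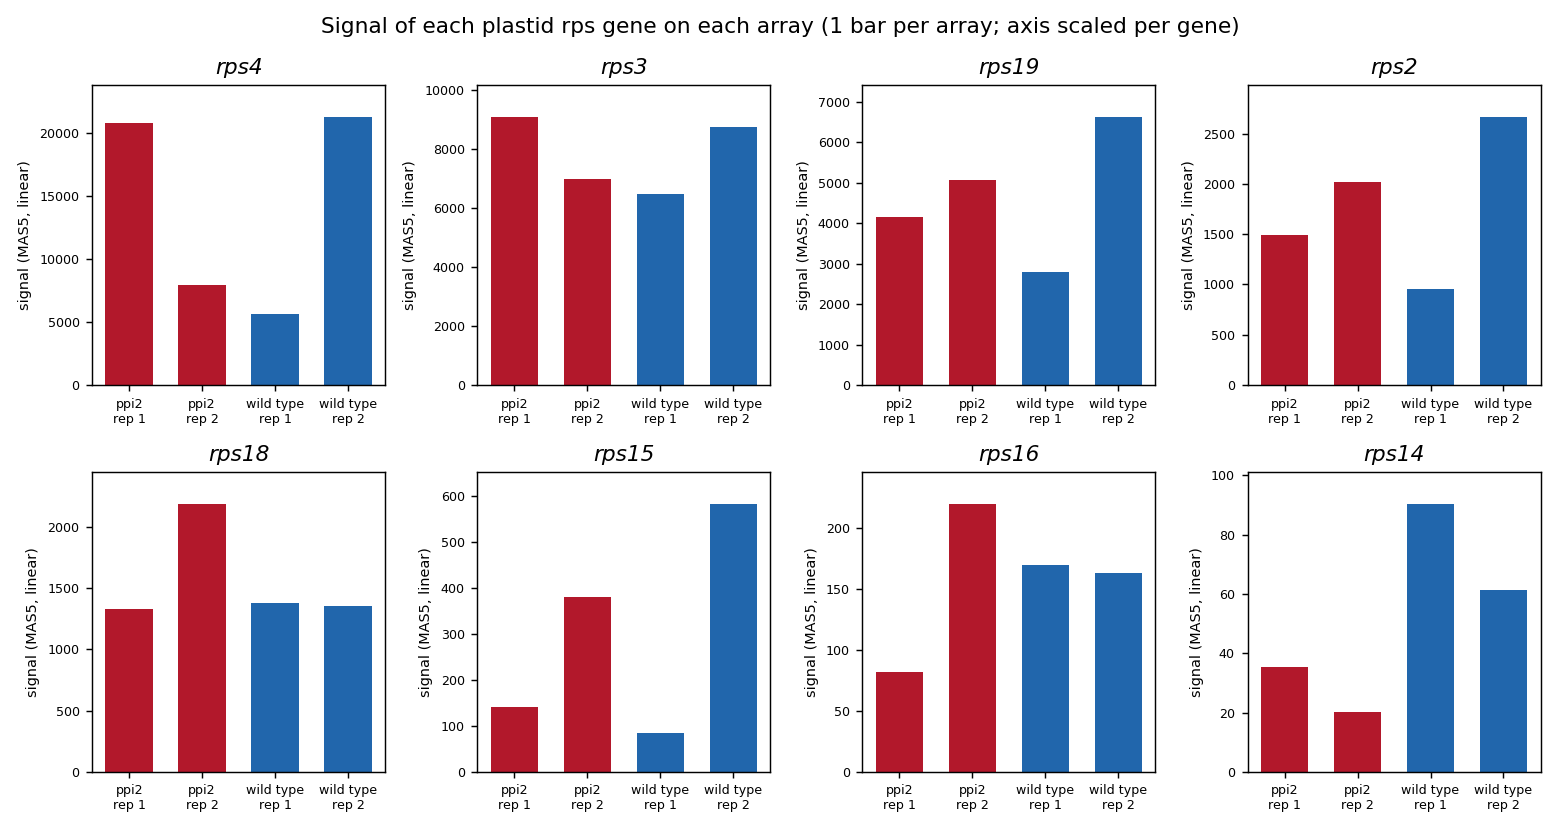
Signal of the 8 plastid rps genes (MAS5, linear scale starting at 0, vertical axis scaled per gene) on each array, with ppi2 arrays in red and wild type arrays in blue; each bar is 1 array. The gene rps4 is high on ppi2 replicate 1 and wild type replicate 2, and the bars of wild type replicate 1 are the lowest for rps4, rps3, rps19, rps2 and rps15.

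The gene with the brightest probe set of the 8 was rps4. It encodes S4, a protein that in Escherichia coli binds the ribosomal RNA early in the assembly of the small subunit, and it is needed for cell survival in tobacco plastids. Its signals were 20849 and 7922 on ppi2 replicates 1 and 2, and 5653 and 21288 on wild type replicates 1 and 2. Thus 1 array of each label was high and 1 was low, and the groups overlapped fully. The group means were 14386 ± 9140 (SD, n = 2) in ppi2 and 13471 ± 11056 (SD, n = 2) in wild type. The labelled log2 difference was 0.23 ± 0.82 (SE). Within replicate number 1, rps4 was 3.69-fold higher on the ppi2 array, and within number 2 it was 2.69-fold higher on the wild type array. Each of these rests on 1 array per arm and has no error. On the scale with the pseudocount, it was the only tested rps gene at least 2-fold higher in number 1 (10.1% of all tested probe sets were) and the only one at least 2-fold lower in number 2 (8.67%), where 5.76% of probe sets were both. On that scale no tested rps gene was at least 2-fold lower in number 1 (10.9% were) or at least 2-fold higher in number 2 (9.59%), and so none was both (7.14%). On plain signals, rps16 was 2.06-fold lower on the ppi2 array in number 1, a log2 difference of -0.98 with the pseudocount. The 2-fold counts of rps genes in number 1 changed with the processing. There rps16 was -1.02 with median centring and -1.01 with the pseudocount at the 5th percentile of signals, both past 2-fold lower. With quantile normalization rps15 was 1.099 in number 1, past 2-fold higher. In number 1 the rps4 log2 difference of 1.88 was above 97.5% of tested probe sets, and in number 2 the rps4 value of -1.43 was above 4.14%.

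The genes rps3 and rps19 lie in the large cluster of ribosomal protein genes, which has the order of a bacterial operon. S3 lines the entry channel of the messenger in bacterial ribosomes, and S19 sits in the head of the subunit. The signals of rps3 were 9072 and 6966 on ppi2 replicates 1 and 2 and 6469 and 8727 on wild type replicates 1 and 2. This was the narrowest range of the 8 genes, 1.40-fold from lowest to highest array. The labelled difference of rps3 was 0.08 ± 0.32 (SE). The signals of rps19 were 4150 and 5058 in ppi2 against 2796 and 6617 in wild type. Here both ppi2 arrays lay between the wild type arrays, at means of 4604 ± 642 (SD, n = 2) and 4707 ± 2702 (SD, n = 2). The labelled difference was 0.09 ± 0.50 (SE).

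The same arrangement, with both ppi2 arrays inside the wild type range, was seen for rps2 and rps15, and also for rps4 described above. S2 joins the bacterial subunit late in its assembly, and plastid rps2 is needed for cell survival in tobacco. The signals of rps2 were 1496 and 2022 on ppi2 replicates 1 and 2 and 957 and 2665 on wild type replicates 1 and 2. Its labelled difference was 0.12 ± 0.57 (SE). S15 is an early binder of the ribosomal RNA in bacteria, and tobacco plastids can live without rps15. The signals of rps15 were 141 and 381 on ppi2 replicates 1 and 2 and 85.2 and 583 on wild type replicates 1 and 2. The 2 wild type arrays were thus the extremes of a 6.85-fold range, the widest of the 8 genes, at a low signal. The labelled difference of rps15 was 0.04 ± 1.04 (SE), and it became -0.02 with the pseudocount at the 25th percentile of signals.

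The remaining tested genes, rps18 and rps16, were highest on ppi2 replicate 2. S18 forms part of the platform of the bacterial small subunit together with S6, and rps18 is needed for cell survival in tobacco plastids. The signals of rps18 were 1328 and 2191 on ppi2 replicates 1 and 2 and 1377 and 1352 on wild type replicates 1 and 2. The wild type arrays and ppi2 replicate 1 differed little and ppi2 replicate 2 stood above them. Its labelled difference was 0.32 ± 0.36 (SE), and it was -0.04 without ppi2 replicate 2. S16 takes part in assembly of the small subunit in Escherichia coli. Whether plastid rps16 yields a working protein in these plants was not tested. The signals of rps16 were 82.3 and 220 on ppi2 replicates 1 and 2 and 169 and 164 on wild type replicates 1 and 2. The ppi2 arrays enclosed the wild type arrays, and the labelled difference was -0.28 ± 0.59 (SE). Without ppi2 replicate 1 that difference was 0.39.

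The dimmest of the 8, rps14, did not meet the signal minimum and was the only one whose labelled groups did not overlap. It encodes S14, a protein of the head of the bacterial subunit, and in plants it is transcribed together with psaA and psaB of photosystem I. Its signals were 35.4 and 20.1 on ppi2 replicates 1 and 2 and 90.4 and 61.5 on wild type replicates 1 and 2. The means were 27.7 ± 10.8 (SD, n = 2) and 76.0 ± 20.5 (SD, n = 2), both below the minimum of 124. The labelled log2 difference was -1.24, with an exact two-sided permutation p of 0.333, the smallest that this design allows. When every probe set was tested without a minimum, its limma adjusted p was 0.99997. Both ppi2 arrays lay below both wild type arrays in 8.14% of tested probe sets, which do not include rps14. The share among probe sets below the minimum was not counted. The plastid gene petG, also too dim to test, had the same arrangement, at 49.5 and 39.9 against 90.5 and 53.2. Just inside the minimum lay rps16, with group means of 151 and 166.

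The differences within replicate numbers had opposite signs for all 7 tested genes. In 5 of them (rps2, rps3, rps4, rps15 and rps19) the ppi2 array was higher in number 1 and lower in number 2 (higher then lower), as in 41.1% of all tested probe sets. In rps16 and rps18 it was lower in number 1 and higher in number 2 (lower then higher), as in 36.8% of tested probe sets. The rps14 difference was negative in both numbers (-1.18 and -1.31), as was that of 12.3% of tested probe sets, and 0 of the 8 genes were higher in both (9.77%). The 5 genes of the first kind ran from 0.49 (rps3) to 1.88 (rps4) in number 1 and from -0.32 (rps3) to -1.43 (rps4) in number 2. The values of rps2 were 0.64 and -0.40, those of rps19 0.57 and -0.39, and those of rps15 0.68 and -0.60. For rps18 they were -0.05 and 0.69, and for rps16 -0.98 and 0.41. Medians over the 7 tested genes were 0.57 in number 1 and -0.39 in number 2, against 0.02 and -0.05 over all tested probe sets.

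**Figure D2:**
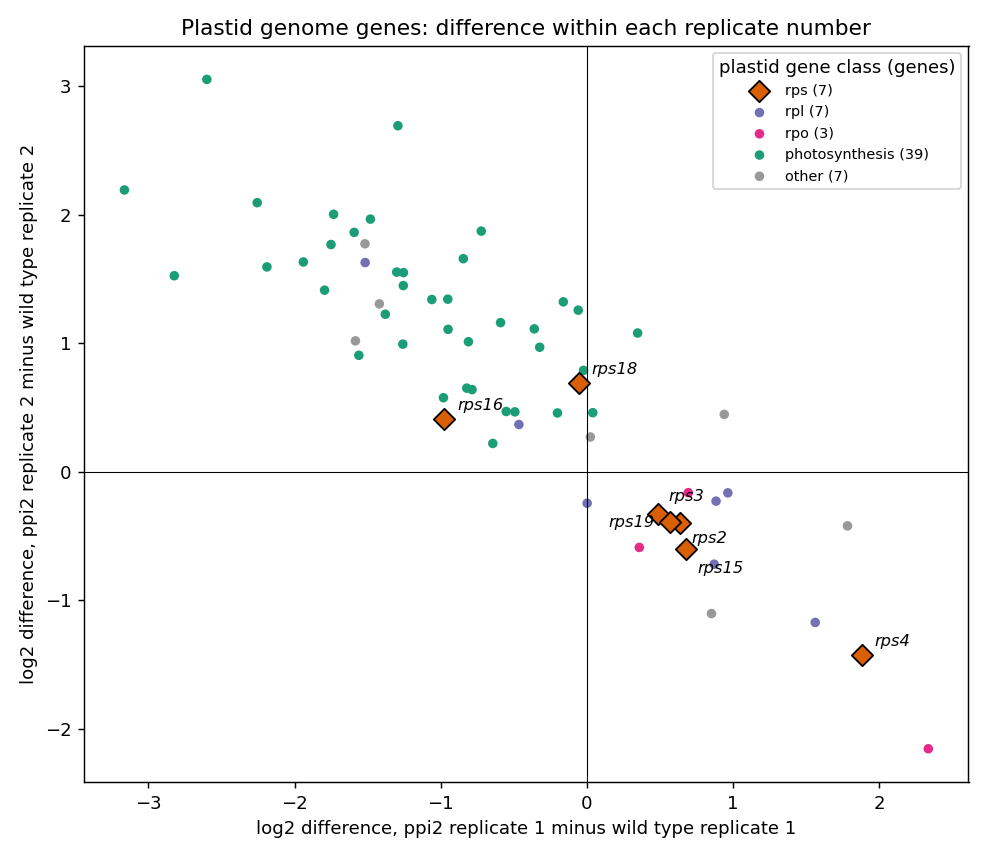
Log2 difference between the ppi2 and wild type array of replicate 1 (horizontal axis) and of replicate 2 (vertical axis) for the 63 tested plastid genes, coloured by class, with rps genes as labelled diamonds; each point is 1 gene. The diamonds of rps2, rps3, rps4, rps15 and rps19 lie in the lower right part with most rpl and rpo genes. Those of rps16 and rps18 lie in the upper left with the photosynthesis genes, with rps18 close to the vertical zero line.

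Other plastid genes of transcription and translation were set beside the rps genes. Of the 7 tested rpl genes, for proteins of the large subunit, 5 had the signs of rps4 and 2 those of rps16, and their medians were 0.87 in number 1 and -0.23 in number 2. All 3 tested rpo genes had the signs of rps4, at medians of 0.69 and -0.59. Of 39 tested photosynthesis genes (psa, psb, pet, atp, ndh and rbcL), 0 had the signs of rps4 and 37 those of rps16, at medians of -0.98 and 1.32. By labelled difference, 0 genes of these classes passed the limma threshold. The rpl genes of highest mean signal were rpl16 and rpl36. The first read 7217 and 10178 in ppi2 against 3693 and 11402 in wild type, and the second 7494 and 7842 against 4055 and 9187. For rpoA the values were 7702 and 6233 against 4755 and 6976, and for rpoC1 2064 and 1798 against 1607 and 2708. Among the photosynthesis genes, atpB and psbM were brightest. The first read 16421 and 37731 against 39311 and 18944, and the second 13119 and 47584 against 23570 and 15063. Signs were counted at any size, and some rest on values near 0, such as 0.0026 for rpl20 and -0.05 for rps18 in number 1. The classes were compared by counts and medians only, and the difference between them was not tested.

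The order of the 4 arrays was also counted for each class. Wild type replicate 1 was the lowest array for 5 of 7 tested rps genes, 5 of 7 rpl genes, 3 of 3 rpo genes and 2 of 39 photosynthesis genes, and for 28.6% of all tested probe sets. Wild type replicate 2 was the highest array for 4 of 7 rps genes, 4 of 7 rpl genes, 2 of 3 rpo genes and 0 of 39 photosynthesis genes, and for 23.8% of all. The genes rps2, rps15 and rps19 shared a single order, from wild type replicate 1 through ppi2 replicates 1 and 2 to wild type replicate 2. That order held for 2.37% of all tested probe sets and for 4 other plastid genes, rpl16, rpl36, rpl20 and ycf3. The order of rps4 placed ppi2 replicate 1 above ppi2 replicate 2 and was found for clpP, rpoC1, rpoC2 and rpl14 and for 10.0% of all probe sets. The order of rps18 and rps16 ran from ppi2 replicate 1 through wild type replicates 2 and 1 to ppi2 replicate 2. This full order was that of 18 other plastid genes and 7.17% of all. Orders were compared after the values were seen, and neighbouring arrays in an order can differ by little, as for rps18. The median absolute log2 difference of the 7 rps genes was 1.24 between the wild type arrays and 0.72 between the ppi2 arrays. For the rps genes the closest arrays were those of the same replicate number, at 0.41 in number 2 and 0.64 in number 1. The pairs closest over all probe sets were both at 0.67, and these medians of 7 genes were not tested.

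**Figure D3:**
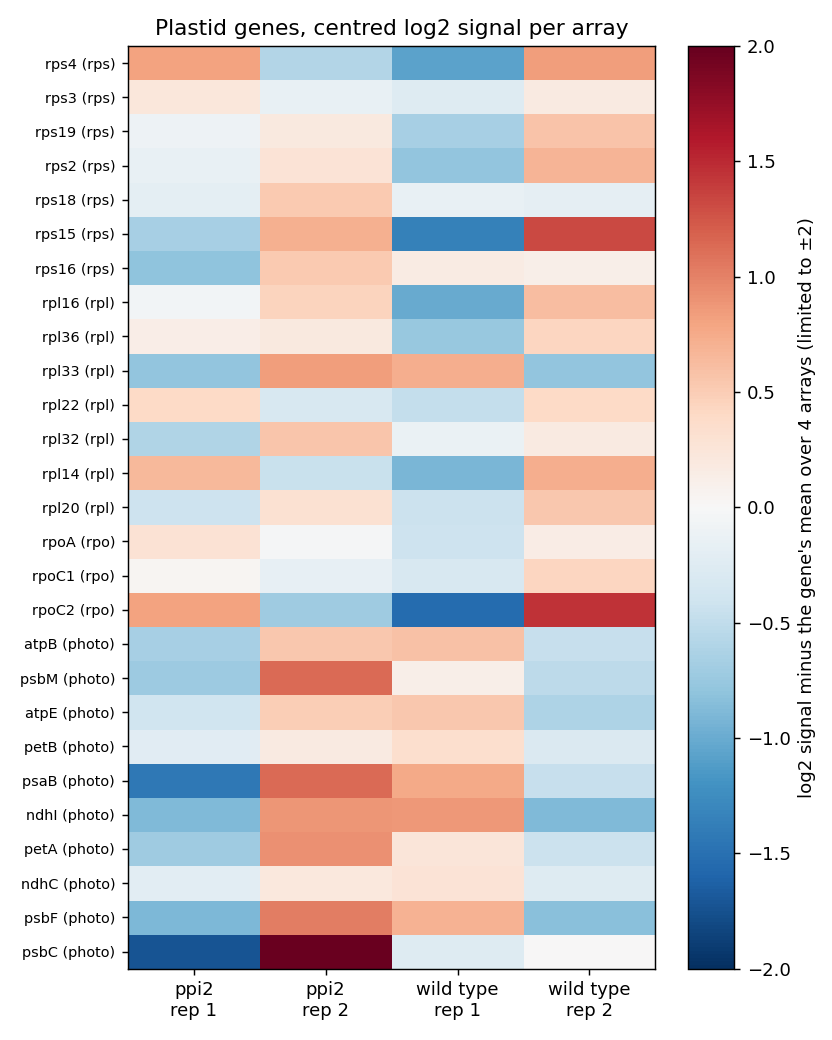
Log2 signal of plastid genes on each array after subtracting the gene's mean over the 4 arrays, as colour (blue below the mean, red above, limited to 2 in either direction), with the tested rps, rpl and rpo genes and the 10 brightest photosynthesis genes as rows. The row of rps15 runs from the darkest blue of the rps genes on wild type replicate 1 to the darkest red on wild type replicate 2.

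Position along the plastid genome was set beside these values, using the nearest 3 protein-coding genes on each side that had a probe set of their own. The cluster around rps3 showed like signs throughout: rpl36, rpl14, rpl16, rpl22 and rps19, 5 of its 6 neighbours, were higher then lower as rps3 was. Of these, rpl14 had the widest values, 1491 and 691 on the ppi2 arrays against 499 and 1568 on the wild type arrays. The gene on the other side of rps3, rpl22, read 7233 and 4382 against 3949 and 7219. The remaining neighbour counted for rps3 was ndhF, which lies beyond genes with shared probe sets and was too dim to test.

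The signs turned at rps2. On one side lie rpoC2 and rpoC1, for subunits of the plastid RNA polymerase, which were higher then lower like rps2. The values of rpoC2 were 1394 and 481 against 269 and 2169, a wider swing than in rps2. On the other side lie atpI, atpH and atpF, for subunits of the ATP synthase, and these were lower then higher. The gene beyond rpoC1, rpoB, was too dim to test. The values of atpH were 560 and 1703 against 970 and 1090. The same contrast was seen at rps15, which follows ndhH, ndhA and ndhI, for subunits of the NDH complex. All 3 were lower in number 1 and higher in number 2, and rps15 was the reverse. The values of ndhA were 1107 and 5137 against 5315 and 1196, log2 differences of -2.26 and 2.10, where rps15 had 0.68 and -0.60.

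The gene rps4 stands between ycf3, for a factor of photosystem I assembly, and ndhJ. Only ycf3 among its 6 neighbours had the signs of rps4, with 362 and 483 on the ppi2 arrays against 197 and 1047 on the wild type arrays. The gene ndhJ read 509 and 865 against 495 and 627. The gene rps18 lies between rpl33 and rpl20. Of its 6 neighbours, 3 had its signs, psaJ, rpl33 and psbB. The gene psaJ read 1393 and 5509 against 2448 and 2726, and psbB 189 and 1322 against 647 and 324. The adjacent rpl33 read 2991 and 9252 against 8575 and 2986, log2 differences of -1.52 and 1.63. On the other side rpl20 read 205 and 343 against 204 and 408. The protease gene clpP, next beyond rpl20, read 12032 and 9312 against 3487 and 12468. The genes around rps16 were mostly lower then higher as it was (psbA, psbK, psbI and atpA, 4 of 5), with psbK at 239 and 1384 against 940 and 441. At rps14, 0 of 6 neighbours shared its signs, and psaB next to it read 5172 and 30390 against 23617 and 10055.

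**Figure D4:**
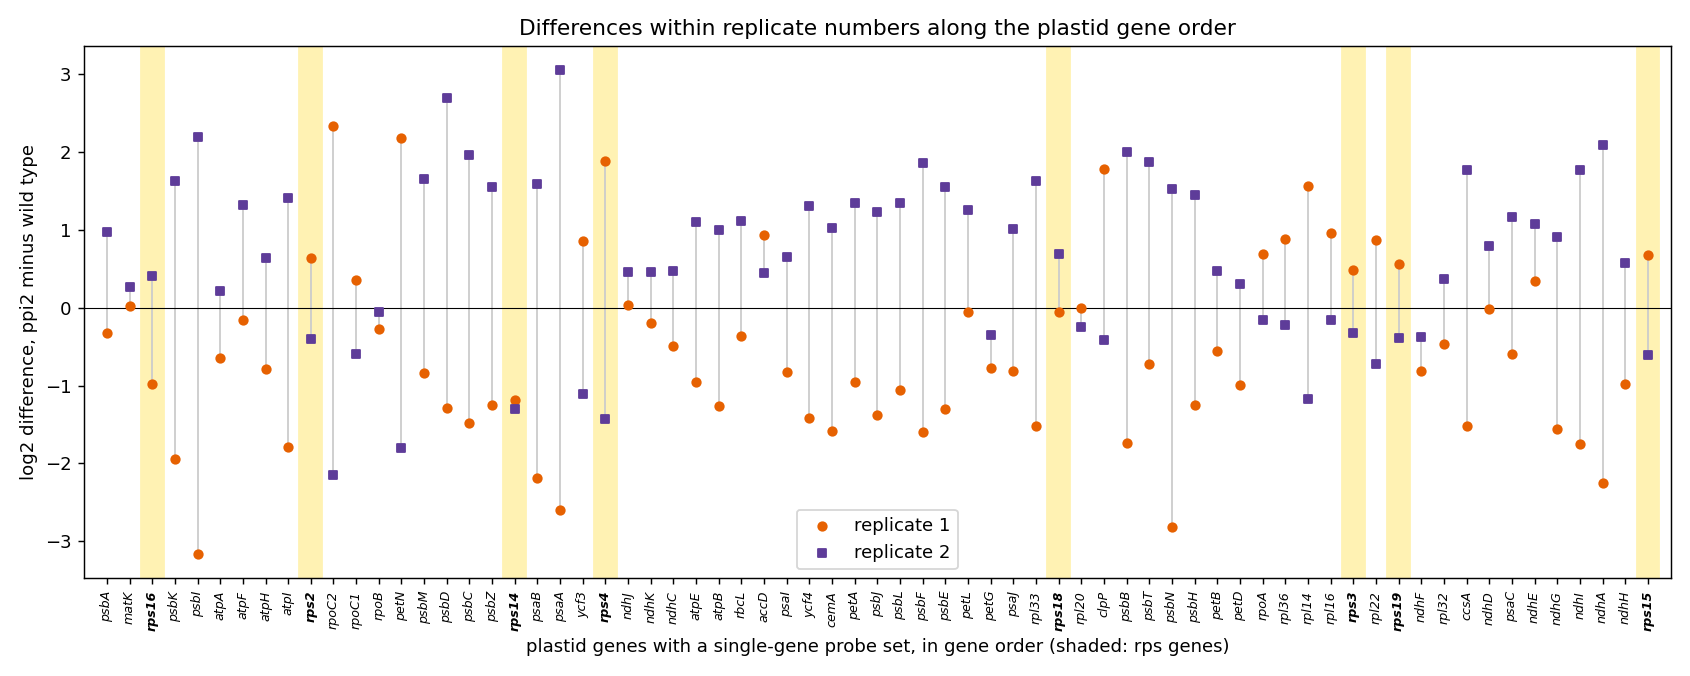
Log2 difference, ppi2 minus wild type, within replicate 1 (circles) and replicate 2 (squares) for the 69 plastid genes with a probe set of their own, in gene order along the horizontal axis, with the 8 rps genes shaded. A grey line joins the values of 1 gene; circles lie above squares at rps2, rps4, rps3, rps19 and rps15 and below them at rps16 and rps18.

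Small-subunit proteins of the plastid that are encoded in the nucleus could be set against the plastid genes for few members. Of 14 listed genes, 3 had a probe set of their own, AT1G64510, AT3G13120 and AT5G24490, and all were tested. None passed the limma threshold, and all 3 were lower in number 1 and higher in number 2, with medians of -0.86 and 0.75. These are the signs of rps16 and rps18 and the reverse of those of the other 5 tested plastid genes. AT1G64510 read 3337 and 4776 on ppi2 replicates 1 and 2 and 4250 and 2962 on wild type replicates 1 and 2. AT3G13120 read 3873 and 6100 against 7058 and 3621. AT5G24490 read 5088 and 14891 against 12562 and 5148. Each was thus high on ppi2 replicate 2 and wild type replicate 1, where rps4 was low. Genes for large-subunit proteins in the nucleus numbered 7 with a probe set of 27 listed. Of these, 4 were lower then higher, 2 were higher in both and 1 was lower in both, with medians of -0.30 and 0.54. The labelled groups did not overlap in 3 of the 7, with ppi2 higher in 2 (6.12% of all tested probe sets) and lower in 1 (8.14%), and 0 of the 7 passed the limma threshold.

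The genes whose profile over the 4 arrays lay closest to rps4 were nuclear. Likeness was the root mean square difference between log2 profiles, each centred on its own mean, among 7217 named genes. The closest were AT2G47680 (0.044), AT2G30740 (0.047), FER (0.059), AT1G14300 (0.068) and AT4G31790 (0.070). FER, the receptor kinase FERONIA, read 3591 and 1497 in ppi2 against 1048 and 3708 in wild type. The closest rps gene to rps4 was rps3, at 0.64, which ranked 1664. For rps3 the closest were AT4G10970 (0.0056), AT1G26380 (0.0095), AT3G02460 (0.022), AT5G15640 (0.022) and AT1G16850 (0.023). Among so many genes and only 4 arrays, small distances are common, and they carry no test.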

How the data were processed

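The deposited table, per the labels' processing notes, holds a linear signal intensity per probe set, which the authors made with MAS5 (version and scaling not given in the sources used here). It held 22810 probe sets, including 64 controls, which were left out. Without controls the 2% trimmed means of the arrays differed by at most 0.41%, so no scaling was added. The number of arrays limits the precision. A platform annotation gave 1 gene to 13513 probe sets and several to 503; 13436 of the former matched a RefSeq table (TAIR10.1), used for names, chromosome and gene order only. Any other plastid rps gene is not reported here.

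The pseudocount was 7.99 and the minimum mean signal 124 (10th percentile of signals, 40th of means); the brightest probe set stood for a gene. Groups were taken from sample titles. limma 3.58.1 in R 4.3.3 (lmFit, eBayes with trend, group only, two-sided) gave p-values adjusted over 13604 probe sets by Benjamini-Hochberg, with 2 residual and 2.59 prior degrees of freedom. The step was run on simulated independent arrays with less spread than these arrays had, so that run does not cover the spread seen here. Members, lists, neighbours and the rule for named genes (all members, neighbours, the 2 brightest genes of each plastid class, nuclear small-subunit genes and the 5 closest profiles to rps4 and rps3) were chosen with earlier results of these data known. Genes outside that rule were named after their values were seen. The alternatives changed the scaling (quantile, median), the pseudocount or the filter, or used averaged probe sets, no variance trend, the replicate block or 1 array fewer. Plots were made in Python 3.11.15 (matplotlib 3.10.9).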

Additional observations from a re-analysis of the deposited data

How the results depend on the processing

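The counts of probe sets and of rps genes past the limma threshold were 0 under every alternative run, leaving out each array included. Of 97 alternative labelled differences of the rps genes, 0 passed. The median of the tested genes was 0.07 under quantile normalization, 0.10 under median centring and 0.12 under the 60th percentile filter (5 genes left). Leaving out 1 array moved this median from -0.53 (without wild type replicate 1) to 0.71 (without wild type replicate 2). Over these 4 fits, which assume that the single array of a group varies as the other group does, rps4 ran from -0.73 to 1.18, rps3 from -0.13 to 0.30, rps19 from -0.53 to 0.71, rps2 from -0.61 to 0.86, rps18 from -0.038 to 0.68, rps15 from -1.29 to 1.37 and rps16 from -0.95 to 0.39. With all arrays, the sign turned for rps19 with quantile normalization (-0.0050) and for rps15 with the pseudocount at the 25th percentile (-0.022); the cause was not tested. Within replicate numbers, 0 of 56 alternative values changed sign, but sizes moved with quantile normalization. The rps4 values went from 1.88 to 2.67 in number 1 and from -1.43 to -2.24 in number 2. That of rps15 in number 1 went from 0.68 to 1.099, and that of rps3 in number 2 from -0.32 to -0.61. Some values shrank, such as that of rps16 in number 1, from -0.98 to -0.67. Arrays of the same number did not deviate together over all probe sets (r = -0.82; probe sets are not independent replicates), so the block is an alternative only. With the replicate number as a block 0 probe sets passed and the median of the rps genes was 0.09. With crossed numbers as a block, chosen after the data were seen, 0 passed. Low signal limits what rps14, rps15 and rps16 show.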

Other observations

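Initiation factors of plastid translation are encoded in the nucleus, and 4 of the 10 listed translation factors had a probe set of their own. FUG1, the plastid initiation factor that brings the first transfer RNA to the ribosome, read 2418 and 2925 on ppi2 replicates 1 and 2 and 3456 and 2347 on wild type replicates 1 and 2. AT2G24060 read 731 and 1487 in ppi2 against 1488 and 1020 in wild type. AT4G30690 read 1109 and 2414 against 2131 and 1124. These 3 genes were lower on the ppi2 array in number 1 and higher in number 2. AT4G11175 read 573 and 657 against 525 and 535 and was the only one of the 4 whose labelled groups did not overlap, with ppi2 higher, as in 6.12% of all tested probe sets. None of the 4 passed the limma threshold.

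Of the 8 listed sigma factors and phage-type polymerases, 1 had a probe set, AT5G15700, at 108 and 61.0 in ppi2 against 91.8 and 132 in wild type. It lay below the signal minimum and was not tested.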
